A study of Homo sapiens with 12 samples.

Results

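Serine is encoded by 6 of the 61 sense codons, and these fall into separate boxes of the genetic code. The 4-codon box holds the pyrimidine-ending UCU and UCC and the purine-ending UCA and UCG, and the 2-codon box holds AGU and AGC. All 6 were taken from the codon tables by their amino acid alone. No measured value enters that rule, but it was chosen with earlier results of these data known. Their relative occupancy by translating ribosomes was described in cells with and without THUMPD1, in 12 libraries. The cells were a line from human embryonic kidney, HEK293 by the sample labels but HEK-293T by the methods of the study, which is adherent, grows readily and is easily edited. The WT group was labelled as wild type, and the KO group carried a THUMPD1 deletion made with CRISPR-Cas9 and guides used as a pair, followed by sorting of single cells. How many clones stood behind the KO libraries was not given in the sources used here, so an effect of the deletion and an effect of clonal origin cannot be told apart. Monosome footprints were sequenced in 8 libraries (4 for each genotype) and disome footprints in 4 (2 for each genotype). The labels give no other treatment, and all cells were lysed with cycloheximide, which holds ribosomes in place.

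THUMPD1 is the adapter that guides the acetyltransferase NAT10 to the tRNAs for Ser and Leu, where a cytidine of the D arm becomes N4-acetylcytidine. These are the tRNAs with a long variable arm that receive this mark in human cells. Ribosome profiling sequences the mRNA fragment shielded by a ribosome, so that footprints pile up at codons where the ribosome dwells. Disome profiling does the same for the longer fragment shielded by a pair of collided ribosomes, and there the codon assigned is the one in the A site of the ribosome in front. At the A site the incoming tRNA is tested against the codon. The comparison of KO with WT therefore asks whether ribosomes, single or collided, were found more often at Ser codons when THUMPD1 was missing.

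The boxes differ at both the first and the second base and are read by different tRNAs. Among RefSeq gene names of the GRCh38.p14 assembly, 26 tRNA-Ser genes were counted. Of these, 10 carried the anticodon AGA, whose first base is edited to inosine and which reads UCU and UCC. A further 4 carried UGA, which pairs with UCA, and 4 carried CGA, which pairs with UCG. The remaining 8 carried GCU, which pairs with AGC and reads AGU by wobble. Thus the 2-codon box is read by 1 of the 4 anticodons, and UCG has an anticodon that pairs with it directly. Further wobble within the 4-codon box was not assigned, so UCA and UCG may be read by more than 1 of these tRNAs. Gene counts are given as background and do not measure tRNA amounts.

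The codons also differed in how often human genes use them. Over 19510 coding sequences of GENCODE release 44, each counted once, AGC made up 19.9 per 1000 codons and ranked 13 of 61. UCC and UCU followed with 17.7 and 15.6 per 1000, and UCA and AGU with 12.8 and 12.7. UCG was rare, at 4.56 per 1000 and rank 60 of 61, and accounted for 5.47% of Ser codons. Usage and the spread of occupancy between libraries were not closely related. Across all 61 codons, which are not independent replicates, Spearman's rho between usage and the pooled SD was -0.01 in monosomes and -0.20 in disomes.

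A deposited value is the relative occupancy of a codon in a library, a linear ratio with no unit. The tables do not name the ribosomal site, and the A site is taken from the methods of the study. Averaged over the 61 codons it was 0.981 to 1.00 in a monosome library and 0.949 to 0.962 in a disome library. Levels in the monosome and disome tables may have been set separately and are shown side by side without a test. The SD of log2 occupancy over the 61 codons was 0.26 to 0.41 in monosome libraries, 0.56 in disome WT replicate 1 and 0.43 to 0.46 in the other 3 disome libraries. Counts behind the ratios were not used here, so the depth of each library is unknown. There are no values per gene in the tables, so neither the loss of THUMPD1 nor markers of the cell line could be checked.

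Among monosomes, UCG was the Ser codon with the highest occupancy and the only one whose mean was above 1. Its occupancy was 1.24, 1.36, 0.991 and 1.15 in WT replicates 1 to 4. In KO replicates 1 to 4 it was 1.22, 1.38, 1.19 and 1.09. The genotypes overlapped, replicate 2 was the highest library of each, and WT replicate 3 was the lowest. UCG ranked between 9 and 19 of the 61 codons and was above the middle rank of 31 in 8 of 8 libraries. The mean was 1.19 ± 0.154 in WT and 1.22 ± 0.120 in KO (SD, n = 4 each).

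UCC and UCU are the codons read by the inosine-bearing tRNA. UCC lay near 1, and UCU was below 1 in every monosome library. UCC stood at 1.00, 1.01, 0.907 and 0.906 in WT and at 1.08, 1.03, 0.884 and 0.944 in KO, replicates 1 to 4. In both genotypes replicates 1 and 2 were higher than replicates 3 and 4. UCU was narrower, with 0.928, 0.938, 0.936 and 0.865 in WT and 0.946, 0.919, 0.913 and 0.933 in KO. A single library, WT replicate 4, lay below all other UCU values. UCU minus UCC was below 0 on the log2 scale in 6 of 8 libraries, with a mean of -0.06 ± 0.07 in WT and -0.08 ± 0.12 in KO (SD, n = 4 each).

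UCA, paired by the tRNA with anticodon UGA, was the most variable Ser codon in monosomes on the log2 scale. Its occupancy was 0.864, 0.631, 0.824 and 0.909 in WT and 0.840, 0.734, 0.884 and 0.858 in KO. Replicate 2 was the lowest library of each genotype, and the remaining values overlapped. UCA was below UCG in 8 of 8 libraries, by a log2 difference of -0.56 ± 0.38 in WT and -0.55 ± 0.25 in KO (SD, n = 4 each). This was the widest of the last-base contrasts in monosomes, and it did not separate the genotypes.

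Both codons of the 2-codon box were below 1 in every monosome library, and so were UCU and UCA of the 4-codon box. The median codon of a monosome library stood at 0.899 to 0.944. AGU stood at 0.937, 0.844, 0.874 and 0.836 in WT and at 0.918, 0.903, 0.916 and 0.901 in KO. The KO libraries lay close together and inside the WT range. AGC stood at 0.833, 0.725, 0.899 and 0.798 in WT and at 0.801, 0.813, 0.848 and 0.864 in KO, again inside the WT range. AGU exceeded AGC in 7 of 8 libraries, by 0.10 ± 0.12 in WT and 0.13 ± 0.06 in KO on the log2 scale (SD, n = 4 each). AGC ranked from 44 to 56 of 61 and was in the lower part of the list in 8 of 8 libraries, although it is the most used Ser codon.

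By mean log2 occupancy both monosome genotypes had UCG first, then UCC and UCU, then AGU, and AGC and UCA at the end. Neighbours in this order mostly overlapped. In WT each of the 5 neighbouring pairs had overlapping ranges, although UCG exceeded UCC in 4 of 4 libraries. In KO the ranges were apart for UCG over UCC, by 0.30 ± 0.13, and for AGU over AGC (SD, n = 4). AGC and UCA could not be ordered, since AGC was the higher in 2 of 4 libraries of each genotype.

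**Figure D1:**
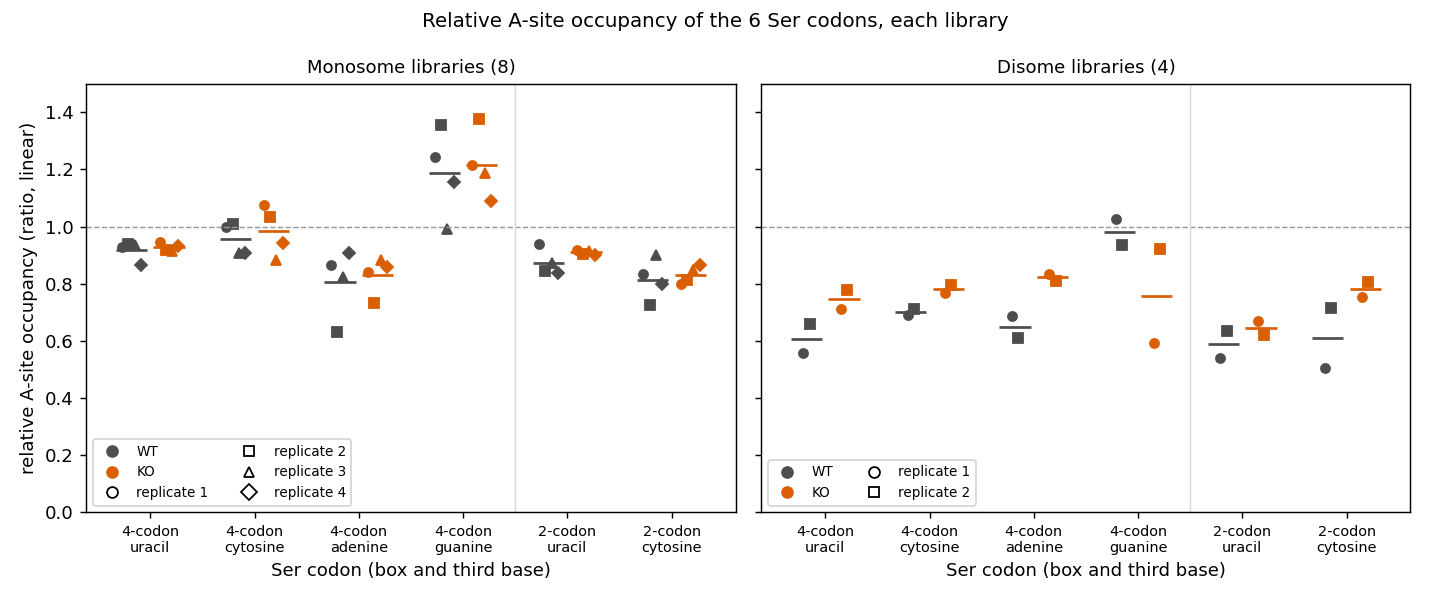
Relative A-site occupancy (linear ratio) of the 6 Ser codons, named by box and last base, in 8 monosome libraries (left) and 4 disome libraries (right), with WT in grey and KO in orange. Symbols mark replicates, horizontal bars are means and the dashed line is 1. In disomes 4 Ser codons lie higher in both KO libraries than in both WT libraries, as do 18 of all 61 codons (29.5%). The guanine-ending codon of the 4-codon box lies lower, as do 14 of all 61 (23.0%).

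The 4-codon box had higher monosome occupancy than the 2-codon box in every library. The mean log2 occupancy of the 4-codon box was -0.07 ± 0.05 in WT and -0.03 ± 0.04 in KO, and that of the 2-codon box was -0.25 ± 0.09 and -0.20 ± 0.02 (SD, n = 4 each). The difference, 4-codon minus 2-codon box, was 0.18, 0.28, 0.04 and 0.22 in WT replicates 1 to 4 and 0.24, 0.21, 0.12 and 0.11 in KO replicates 1 to 4. It was above 0 in 8 of 8 libraries, and the genotypes overlapped, with means of 0.18 ± 0.10 and 0.17 ± 0.06. Much of the difference lay in UCG. With UCG left out, a choice made after its values were seen, the means were 0.08 ± 0.06 in WT and 0.07 ± 0.06 in KO. The difference was still above 0 in 8 of 8 libraries, but only 0.0027 in WT replicate 3 and 0.0196 in KO replicate 3.

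Leu and Arg are the other amino acids with a 4-codon and a 2-codon box, and the same contrast was taken for them. For Leu it was 0.03 ± 0.03 in WT and -0.01 ± 0.09 in KO, above 0 in 4 of 8 monosome libraries. For Arg it was 0.10 ± 0.07 and 0.06 ± 0.06, above 0 in 8 of 8 (SD, n = 4 each). A higher 4-codon box was thus seen for Ser and for Arg, but for Arg it lay in CGA. In WT monosomes CGA had a mean log2 occupancy of 0.47, against -0.15 for CGC, -0.14 for CGG and -0.17 for CGU. In the Arg 2-codon box AGA stood at -0.02 and AGG at -0.18.

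Libraries differed more than genotypes did in how far the Ser codons spread. The SD of log2 occupancy among the 6 codons ran from 0.09 in WT replicate 3 to 0.39 in WT replicate 2. These were also the libraries with the lowest and the highest SD over all 61 codons, 0.26 and 0.41, and the part of that overall spread in the Ser values was not tested. The boxes did not move as units between libraries. Over the 8 monosome libraries, which share their depth and preparation between codons, Pearson's r of log2 occupancy was 0.43 between AGU and AGC. Within the 4-codon box it ranged from -0.61 for UCA with UCG to 0.65 for UCC with UCG. The most negative pair crossed the boxes, at -0.77 for UCG with AGC, and UCA with AGC had 0.66.

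With both genotypes pooled, the closest match of each Ser codon apart from UCU was a codon of another amino acid. The match was picked from 55 codons outside Ser and only a few within it. This outcome was therefore likely in advance and says nothing of Ser codons as a group. Measured in the same way over the 8 monosome libraries and described without a test, UCA was most like CAU of His (r = 0.98) and AAC of Asn (0.94). UCG was most like UGG of Trp (0.93) and CCG of Pro (0.87). AGC was nearest to CAG of Gln (0.85) and AAG of Lys (0.82). UCC was nearest to CUG of Leu (0.79) and GAC of Asp (0.77), and AGU to CUA (0.73) and CUU (0.61). The last pair are Leu codons that rose in KO, and with the mean of each genotype removed their r with AGU was 0.63 and 0.34. UCU had no close match, with 0.50 for CCC of Pro and 0.44 for CUG.

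**Figure D2:**
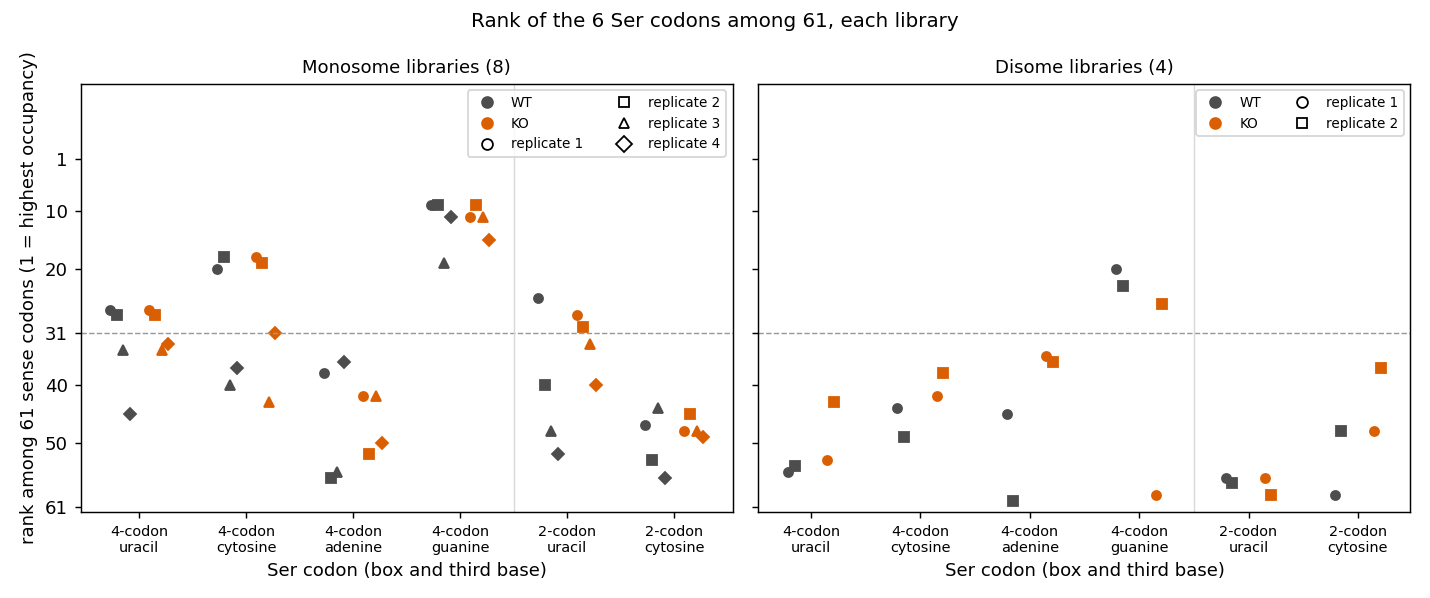
Rank of each Ser codon among 61 sense codons (1 is the highest occupancy, dashed line at the middle rank 31) in every library, with codons named by box and last base. The guanine-ending codon of the 4-codon box ranks 9 to 19 in monosomes, while in disomes the other 5 codons rank 35 to 60.

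None of the 6 Ser codons passed the test in KO monosomes. By limma over all 61 codons, 0 Ser codons passed an adjusted p of 0.05, against 4 of 61 codons (6.56%) in the whole table, all of them Leu codons that rose. At an unadjusted p under 0.05 the count for Ser was also 0, against 5 higher and 3 lower among all 61 codons. An exact permutation test per codon at the same unadjusted threshold gave 0 for Ser, against 4 higher and 2 lower among all 61. At such shares a count of 0 among 6 codons says little about Ser. Same-numbered monosome libraries of WT and KO deviated together, although the closest WT match of KO replicates 3 and 4 had another number. With the replicate number as a block, limma called 8 codons in place of 4, still 0 of them for Ser, with a smallest adjusted p of 0.364 for AGU. Nor were the genotypes apart for any Ser codon. Across the table KO lay above WT without overlap for 4 codons (6.56%) and below it for 2 (3.28%).

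The log2 changes of the Ser codons in monosomes were small and on 1 side of 0. They ran from 0.02 for UCU to 0.06 for AGU, all 6 positive. So were 29 of all 61 codons (47.5%) and 6 of 6 Leu codons, and codons of a library are not independent replicates. The median was 0.04 for Ser, against -0.0024 over all 61 codons and 0.29 over the 6 Leu codons. AGU, the largest, had a 95% interval from -0.05 to 0.17, or from -3.44% to 12.7% (limma, adjusted p = 0.952). UCU had an interval from -0.09 to 0.12, which bounds its change to 8.77% at the upper end. UCA and UCG were less precise, with intervals from -0.20 to 0.30 and from -0.19 to 0.27. For Leu the range was 0.15 to 0.47, and 4 of 6 codons passed. The change of AGU kept its sign without any 1 library, and each of the other 5 turned negative without a certain library.

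The change was alike in the boxes, at 0.04 for the 4-codon box and 0.05 for the 2-codon box. Their difference of -0.011 was smaller than its pooled SD of 0.084. Its sign turned when a library was left out (0.022 without WT replicate 2, 0.0028 without WT replicate 4, 0.0047 without KO replicate 3 and 0.0086 without KO replicate 4).

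**Figure D3:**
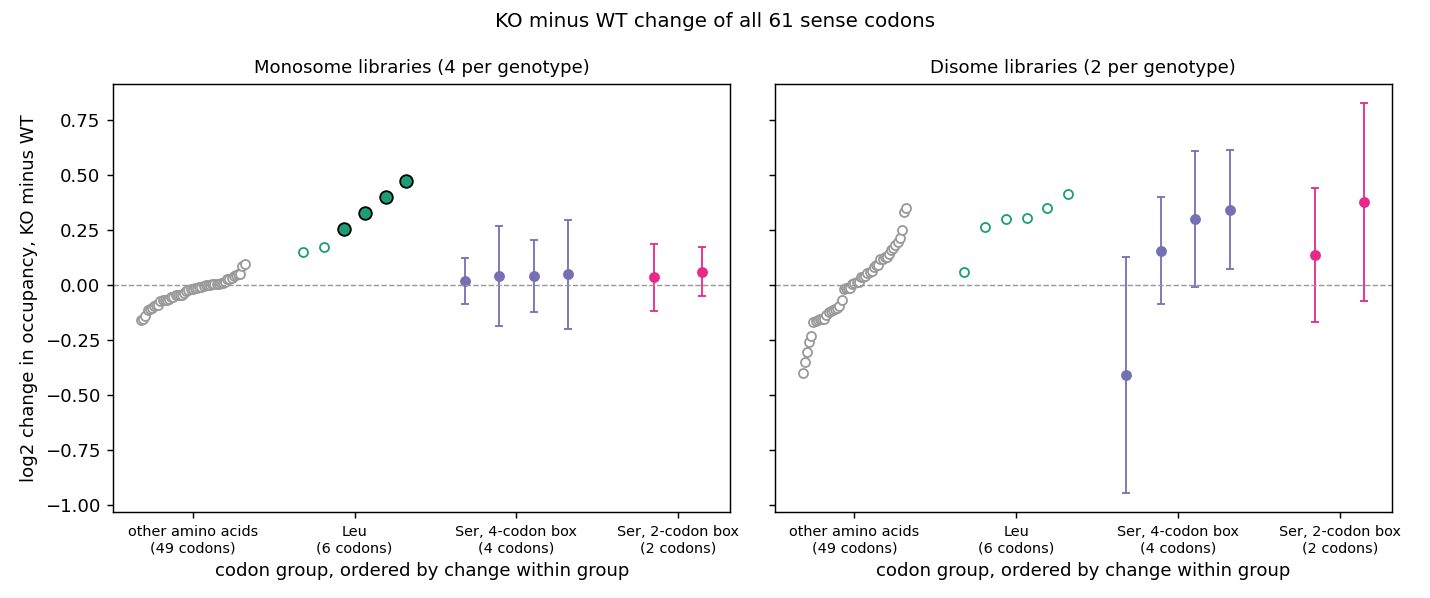
Log2 change in occupancy, KO minus WT, for all 61 sense codons grouped as other amino acids, Leu and the Ser boxes, in monosomes (left, 4 libraries per genotype) and disomes (right, 2 per genotype). Filled black-edged points passed limma's adjusted p of 0.05 (4 Leu codons, monosome only), and bars on the Ser points are 95% intervals; the monosome Ser changes lie between 0.02 and 0.06 and the disome ones between -0.41 and 0.38.

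Disome occupancy of Ser codons was low. By mean log2 occupancy Ser ranked 18 of 20 amino acids in WT disomes and 16 in KO disomes, against 11 and 10 in monosomes. Apart from UCG, each Ser codon was below the middle rank in 4 of 4 disome libraries, between ranks 35 and 60. UCG ranked 20 and 23 in the WT libraries. This was a position within each table, since levels of the tables cannot be compared directly.

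With 2 libraries per genotype, no codon passed an adjusted p of 0.05 in disomes (limma, 0 of 61, or 0%), so none of the Ser codons can be said to have changed. The number at an unadjusted p below 0.05 was 10 (16.4%), among them 1 Ser codon, UCA. An exact permutation test per codon could call none, since with 2 libraries per genotype its smallest possible p is 0.333, and limma gave 4 codons when its prior was robust and followed the mean, 0 of them for Ser. KO lay above WT without overlap for 18 of 61 codons (29.5%), and 4 of these were Ser codons. It lay below WT for 14 codons (23.0%), and 1 of these was a Ser codon. The median log2 change was 0.23 for the 6 Ser codons, 0.30 for Leu and 0.04 for all 61. With each library centred on its median codon, the Ser median was 0.13 and that of all codons -0.05, and UCA was no longer below an unadjusted p of 0.05. Equal spread also left no Ser codon below it. Centring on the 49 codons outside Leu and Ser gave UCA and UCU, and the replicate block gave AGC, UCA and UCU. None of these passed the adjustment.

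UCA had a disome occupancy of 0.689 and 0.610 in WT and of 0.833 and 0.811 in KO. Both KO libraries were above both WT libraries. On the log2 scale the change was 0.34 (SE 0.11, 95% interval 0.07 to 0.61, adjusted p = 0.264 by limma). In monosomes the change of UCA was 0.05.

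UCU stood at 0.558 and 0.658 in WT disomes and at 0.712 and 0.778 in KO disomes, without overlap. Its log2 change was 0.30 (SE 0.12, adjusted p = 0.281 by limma). UCC, read by the same tRNA, stood at 0.692 and 0.712 in WT and at 0.766 and 0.797 in KO. The UCC change was smaller, 0.15 (SE 0.10, adjusted p = 0.435 by limma), and 0.06 with median centring, although its libraries were close to each other within each genotype. UCU was below UCC in 4 of 4 disome libraries, by -0.21 ± 0.14 in WT and -0.07 ± 0.05 in KO on the log2 scale (SD, n = 2 each).

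AGC had the largest positive change of the Ser codons in disomes and the second largest among all 61. Its occupancy was 0.503 and 0.716 in WT and 0.754 and 0.807 in KO, so that both KO libraries were higher and WT replicate 1 stood well below the rest. The log2 change of AGC was 0.38 (SE 0.18, 95% interval -0.07 to 0.82, adjusted p = 0.369 by limma). It was 0.12 without WT replicate 1, and 0.63 without WT replicate 2, when it passed (limma, adjusted p = 0.0393). AGU, read by the same tRNA, stood at 0.542 and 0.635 in WT and at 0.670 and 0.620 in KO. The AGU values overlapped, and the change was 0.14 (SE 0.12, adjusted p = 0.556 by limma), or 0.04 with median centring.

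UCG differed in direction from the other Ser codons in disomes. It stood at 1.03 and 0.936 in WT and at 0.592 and 0.922 in KO. KO replicate 2 was just below the WT libraries, whereas KO replicate 1 was far below and ranked 59 of 61. The log2 change of UCG was -0.41 (SE 0.22, 95% interval -0.94 to 0.13, adjusted p = 0.418 by limma), the lowest of the 61 codons, and the pooled SD of UCG ranked 2 of 61. Without KO replicate 1 the change was -0.09, and without KO replicate 2 it was -0.73 and passed (limma, adjusted p = 0.0450). The lone remaining library in such fits was assumed to vary like the others. In monosomes the change of UCG was 0.04, with an interval from -0.19 to 0.27.

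The last-base contrasts in disomes followed from these values. UCA minus UCG was -0.58 and -0.62 in WT replicates 1 and 2 and 0.49 and -0.19 in the KO ones. The genotypes were thus apart, and KO replicate 1 was reversed in order. UCU minus UCC was also apart, at -0.31 and -0.12 in WT and -0.11 and -0.03 in KO. With 2 libraries per genotype being apart says little, since an exact permutation test cannot give a p below 0.333. AGU minus AGC was 0.11 and -0.17 in WT and -0.17 and -0.38 in KO, so the genotypes overlapped. In monosomes the latter contrast was above 0 in 7 of 8 libraries, while in disomes it was above 0 in 1 of 4.

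By mean log2 occupancy UCG was first in WT disomes, then UCC, then UCA, with UCU and AGC side by side behind them and AGU last. UCG was above UCC in both libraries, by 0.48 ± 0.12 (SD, n = 2), and UCC was above UCA by 0.12 ± 0.15 without overlap. Below these, neighbours overlapped. In KO disomes UCA had the highest mean and AGU the lowest. The range of UCG reached beyond both, below AGU in replicate 1 and above UCA in replicate 2.

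Taken by box, the disome values were less regular than the monosome values. The mean log2 occupancy of the 4-codon box was -0.47 and -0.48 in WT and -0.47 and -0.28 in KO, which overlapped. That of the 2-codon box was -0.94 and -0.57 in WT and -0.49 and -0.50 in KO, without overlap. The changes were 0.10 for the 4-codon box and 0.26 for the 2-codon box, and 0.0019 and 0.16 with median centring. Without UCG, left out after its values were seen, the change of the 4-codon box was 0.26. Without KO replicate 2 the change of the whole 4-codon box was -0.0016, and without WT replicate 1 that of the 2-codon box was 0.07.

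The 4-codon minus 2-codon difference in disomes was 0.47 and 0.09 in WT and 0.02 and 0.22 in KO. It was above 0 in 4 of 4 libraries, and the genotypes overlapped. The mean was 0.28 ± 0.27 in WT and 0.12 ± 0.14 in KO (SD, n = 2 each), and the change of -0.16 was smaller than the pooled SD of 0.21. It became 0.03 without WT replicate 1, -0.35 without WT replicate 2, -0.06 without KO replicate 1 and 0.0084 without UCG. For Leu the same difference was below 0 in 4 of 4 disome libraries, with means of -0.20 ± 0.08 and -0.13 ± 0.13, and for Arg it was above 0 in 2 of 4.

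**Figure D4:**
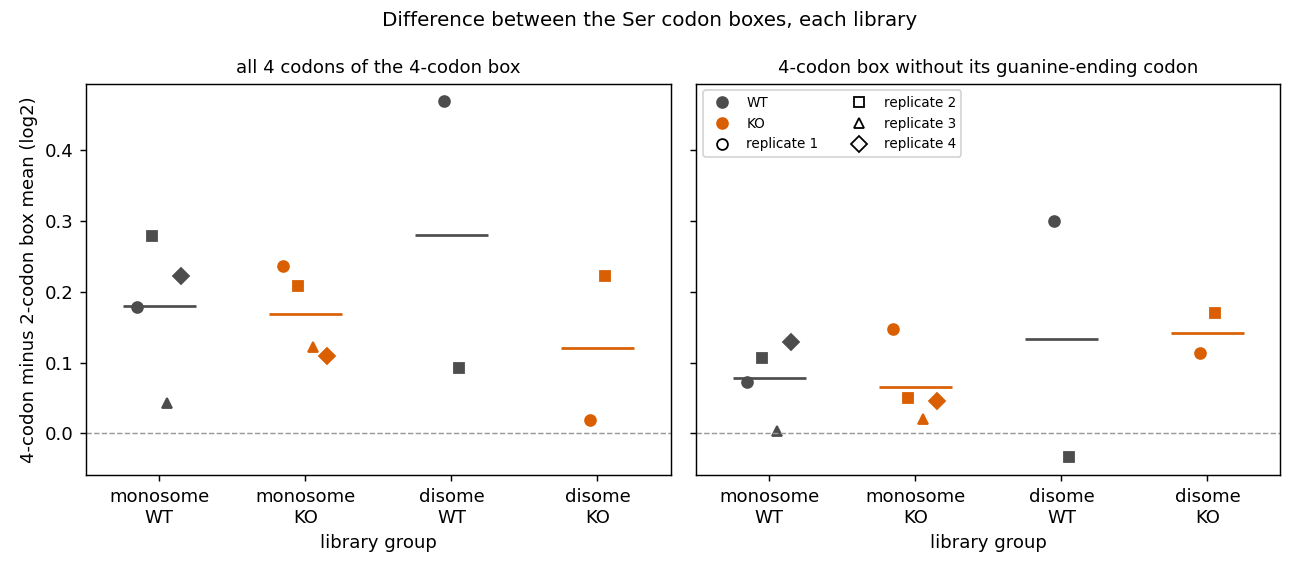
Mean log2 occupancy of the 4-codon Ser box minus that of the 2-codon Ser box in each library, with all codons (left) and without the guanine-ending codon (right), by footprint kind and genotype. Bars are means and the dashed line is 0; the difference is above 0 in 8 of 8 monosome and 4 of 4 disome libraries with all codons, and in 8 of 8 and 3 of 4 without the guanine-ending codon.

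The Ser codons lay closer together in KO disomes than in WT disomes. The range from the lowest to the highest of the 6, on the log2 scale, was 1.03 and 0.62 in WT and 0.49 and 0.57 in KO, without overlap. Arg codons also spanned less in KO, from 1.90 and 1.48 to 0.92 and 0.93, and Leu codons overlapped. The SD over all 61 codons was 0.56 and 0.46 in WT and 0.43 and 0.44 in KO, and its part in the changes of the Ser codons was not tested. With libraries scaled to an equal spread, the disome changes were 0.27 for UCA, 0.26 for AGC, 0.19 for UCU, 0.08 for UCC, 0.01 for AGU and -0.46 for UCG. The signs were as without the scaling.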

How the data were processed

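The authors lysed cells with cycloheximide, digested lysates with RNase I, size selected monosome and disome footprints separately, mapped reads with STAR to canonical UCSC transcripts of hg19 and computed occupancies with custom scripts. The deposited values are a linear ratio per codon and library. Its denominator and any coverage minimum are not given in the sources used here. Because values are relative within a library, higher occupancy at some codons can lower others. Groups and replicate numbers came from the labels, which do not say that libraries came from separate cultures, so p-values measure the spread between these libraries.

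Values were taken to log2 without a pseudocount (0 values were 0 or missing), with T written as U. KO and WT were compared in each table by limma 3.58.1 in R 4.3.3 over 61 codons, with Benjamini-Hochberg adjustment and a threshold of 0.05. The fit was first tested on simulated data with changes far larger than those of the Ser codons. That check does not cover changes of their size. Boxes, ranks and last-base contrasts were described without tests. Members, lists and tests were chosen with earlier results of these data known. The named codons were the 6 Ser codons and, for each, the pair outside Ser with the highest Pearson correlation over 8 monosome libraries. Deviations from the group means of same-numbered WT and KO libraries correlated at 0.534 to 0.872 in monosomes, so those numbers were taken as a possible pairing. In disomes they correlated at 0.0212 and were not taken so. The closest WT match of monosome KO replicates 3 and 4 had another number. Pairing entered only through the replicate block, and the intervals and main p-values are without it. Alternatives were median centring, centring on the 49 codons outside Leu and Ser, equal spread, the linear scale, a trend with robust prior, an exact permutation test, the replicate block and leaving out each library. Leaving out UCG was added after seeing the data. Codon usage came from GENCODE coding sequences of another assembly and was used without coordinates.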

Additional observations from a re-analysis of the deposited data

Results flagged for a closer look

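In WT monosomes UCU occupancy was 0.865 in replicate 4 and 0.928 to 0.938 in the other 3 libraries. The gap below its nearest neighbour was 0.863 of the range of the group, above Dixon's critical value for 4 libraries. Chance marks about 1 in 20 groups, and 18 groups of 4 libraries were examined, so 0.9 would be marked by chance and 1 was. UCU overlapped between genotypes with this library, and its log2 change of 0.02 was -0.01 without it.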

How the results depend on the processing

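The depth behind a value is unknown, a pair of disome libraries per genotype leaves wide intervals, and within-library ratios cannot show a shift of all codons. In monosomes 4 of 61 codons passed. The count was 8 with the replicate block, 3 to 4 without 1 library and 4 to 5 otherwise. It was 0 by the exact permutation test, which the design fixes, since its smallest p is 0.0286 and 35 of 61 codons would have to reach it to pass the adjustment. In disomes that test could call none. The limma count in disomes was 0, and became 1 on the linear scale, 4 with the trend and robust prior and 0 to 3 without 1 library. The block changed no call of a Ser codon. Of 84 monosome values of single Ser codons under alternatives other than that test, 78 kept their direction and side of the threshold and 6 reversed, all with 1 library left out. The reversals were at UCU (range -0.00999 to 0.0288), UCC (-0.00357 to 0.0914), UCA (-0.0651 to 0.110), UCG (-0.0431 to 0.108, reversing without WT replicate 3 at -0.0431 and without KO replicate 2 at -0.0210) and AGC (-0.0193 to 0.0841). Of 60 such disome values, 58 kept both, and AGC without WT replicate 2 (0.63) and UCG without KO replicate 2 (-0.73) passed. With all libraries kept, box values moved by less than the replicate spread in 14 of 14 monosome and 13 of 14 disome cases. The exception was the 4-codon box change in disomes without UCG (0.26). These counts include the box difference under either centring, which cannot move because it is taken inside each library. They also include the linear scale, where the change divided by its spread was compared instead. Leaving out 1 library cannot move a box value by more than the replicate spread, so it is given as ranges only. The 4-codon minus 2-codon change then ranged from -0.0570 to 0.0217 in monosomes and from -0.35 to 0.0284 in disomes. The cause of these differences was not tested.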

Other observations

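UCG shares its last bases with CCG of Pro, ACG of Thr and GCG of Ala, which were looked at after the values of UCG were seen. In WT monosomes CCG stood at 1.20, 1.45, 0.976 and 1.15 in replicates 1 to 4, so that, like UCG, it was highest in replicate 2 and lowest in replicate 3. GCG stood at 1.11, 1.33, 1.00 and 0.950, again highest in replicate 2. ACG did not follow this order, with 1.11, 0.977, 0.992 and 1.10. All 4 codons are little used, ranking 53 to 60 of 61.

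In disomes the direction varied among these codons. ACG was 0.732 and 0.767 in WT and 0.913 and 0.973 in KO, a log2 change of 0.33 (limma, adjusted p = 0.264). CCG was 1.22 and 1.20 in WT and 1.08 and 1.10 in KO, a change of -0.15 (limma, adjusted p = 0.435), on the same side as UCG. GCG overlapped, with 0.759 and 0.881 in WT and 0.912 and 0.747 in KO. The low value of UCG in KO replicate 1 thus had no match among the other 3 in that library, where they ranked 18, 26 and 27 of 61 against 59 for UCG.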
